A study of Mus musculus with 14 samples.

Results

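The comparison described here is the 6h response to BAFF of mouse follicular B cells that lack both RelB and c-Rel. Its members are the 4 libraries with the genotype relb-/-crel-/- (dbko), 2 before culture (0h) and 2 after 6h with BAFF, out of 14 libraries in the series, and it was read across 12630 genes with enough counts out of 39179 gene IDs. The same 6h against 0h comparison in 4 wild-type (wt) and 4 crel-/- (cko) libraries was used only to show where the double knockout differed. All groups share the C57BL/6 strain, isolation from spleen with a bead kit for marginal zone and follicular B cells, and RPMI medium with BAFF at 50 ng/ml for the cultured cells. The labels do not give the age or sex of the mice, whether a library pools animals, or how the null alleles were made, and they name no cell type to which either deletion is limited. Whether the libraries of one group are from separate mice is not stated, and the p-values cover no more than the variation among these libraries, which may be technical. No 6h culture without BAFF was analysed here, so the effects of BAFF and of time in culture cannot be told apart.

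BAFF is a TNF family cytokine that keeps mature B cells alive. Its main receptor on them, BAFFR, acts through TRAF3, cIAP1, cIAP2 and the kinase NIK to drive processing of the Nfkb2 product, which releases RelB dimers, while c-Rel with the Nfkb1 product belongs to the canonical arm that also serves the B cell receptor. In follicular B cells these arms are known for genes of survival (Bcl2l1, Mcl1, Pim2), growth and the feedback inhibitors of NF-kB itself.

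Counts assigned to genes summed to between 10835485 and 11859709 in the 4 libraries. The targeted genes were low but not at 0, as reads of a disrupted gene can still be counted, and the part of each gene that was deleted is not given. Before culture Rel measured 40 CPM in replicate 1 and 52.3 CPM in replicate 2 (CPM are counts scaled to a common library size), and after 6h it measured 53.9 and 61.4 CPM, where the 4 wt libraries held 621 to 683 CPM. For Relb the levels were 53.0 and 65.6 CPM before and 67.8 and 88.4 CPM after culture, below the 115 to 164 CPM of wt. The defining B cell gene Cd79a was abundant in all 4 libraries (801 to 1690 CPM), and Cd3e, which defines T cells, had at most 1 count in each. The 2 replicates, sequenced in lanes 7 and 8, stood apart: their counts differed by a chi-square of 30.92 per gene at 0h and 35.54 at 6h, where the wt pairs gave 2.84 to 4.76 and the cko pairs 3.92 and 22. Replicate 1 had higher summed levels of erythroid, macrophage and mitosis genes, given below, and the values of both replicates are therefore given throughout in the order replicate 1, replicate 2.

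After 6h the double knockout cells held far less transcript of Fos family, Klf and heat shock genes than at isolation, and more of sterol synthesis, antioxidant and amino acid stress genes. Fosb, Fos, Klf4 and Atf3 were among the largest falls, and Ccr9, Il7r, Trib3 and Hmox1 among the largest rises. Of the 12630 genes tested, 5004 (39.6%) changed at an adjusted p under 0.05 (edgeR's quasi-likelihood test with Benjamini-Hochberg adjustment over all genes tested, used for every adjusted p here), with 2442 higher (19.3%) and 2562 lower (20.3%). Changes of at least 2-fold were called in 948 genes (7.51%) that rose and 1150 (9.11%) that fell. The median log2 change over all tested genes was 0.03. Among the called genes 4990 changed in the same direction in both replicates, and in 4970 the 6h and 0h libraries did not overlap, while without regard to the test 3972 genes (31.4%) had both 6h libraries above both 0h libraries and 3711 (29.4%) had both below. Standard errors and adjusted p draw on a spread estimated over all 14 libraries. The wt pairs differed less than the dbko pairs, so these values can understate the spread within dbko. With the 4 libraries fitted alone, which takes the spread from dbko only and leaves 2 residual degrees of freedom in place of 7, 1323 genes were called. The numbers called in most gene groups below then fell by more than 1.5 times (cholesterol synthesis from 19 to 8 higher, follicular markers from 9 to 4 lower, heat shock from 14 to 9 lower, and glycolysis from 11 to 2 higher). Of the 258 named genes called in dbko, 197 kept the call in each alternative apart from that fit, and 136 in that fit as well. The calls of Cables1, Cd79a, Rela, Nfkbia, Birc2, Traf6, Chuk, Pim1, Bax, Casp9, Myc, Gnl3, Eno1, Bnip3, Egln1, Ankrd37, Ddit4, Slc2a3, Cxcr5, Cd1d1, Sdc1, Ak4 and Hspa1a were lost in that fit and in no other alternative (adjusted p from 0.0506 for Nfkbia to 0.149 for Chuk).

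Ccr9, the receptor for the gut and thymus chemokine CCL25, went from 3.38 and 3.07 CPM before culture to 91.3 and 79.4 CPM after 6h, a log2 change of 4.72 ± 0.20 (± is the standard error of the fit over all 14 libraries, adjusted p = 2.45e-08). Il7r, the IL-7 receptor chain, went from 1.5 and 1.44 to 31.4 and 30 CPM (4.37 ± 0.25, adjusted p = 2.14e-07). Trib3, a pseudokinase induced by ATF4, went from 2.54 and 1.92 to 28.8 and 29.2 CPM (3.69 ± 0.22, adjusted p = 2.14e-07). In these 3 genes the replicates lay close together at both times, far from the other time. Dtx4, a Deltex-family ubiquitin ligase, rose from 5.07 and 7.95 to 53.0 and 73.6 CPM, and Hmox1, heme oxygenase 1, from 37.8 and 25.9 to 365 and 244 CPM. Mmp19, a matrix metalloproteinase, stood at 1.97 and 2.78 CPM at 0h, and at 6h replicate 1 was above replicate 2 (54.9 and 22.4 CPM). Nrgn, a calmodulin-binding protein best known from neurons, had the same order at 6h, 51.9 and 28.5 CPM, from 3.57 and 3.07 CPM. Ak4, Msrb3 and Tbc1d30 were at under 0.5 CPM in both 0h libraries, and at 6h stood at 1.29 and 7.03, 4.13 and 18.7, and 7.12 and 11 CPM. The other leading rises were Slc39a4, Bcat1, Slc1a4, Cables1 and Eno2. Only genes with both 6h libraries above both 0h libraries were ranked for these rises.

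Fosb, an AP-1 subunit, had the largest fall among named protein-coding genes averaging 3 or more on the log2 CPM scale, from 1670 and 2950 CPM at 0h to 3.56 and 8.83 CPM at 6h, a log2 change of -8.53 ± 0.41 (adjusted p = 1.3e-07). Fos went from 242 and 578 to 4.37 and 12.1 CPM and Klf4, a zinc finger factor of quiescent cells, from 274 and 563 to 6.07 and 11.5 CPM. Replicate 2 was the higher one at both times in these 3 genes. Atf3, a stress-induced ATF/CREB factor, went from 624 and 525 to 20.1 and 18.7 CPM (-4.89 ± 0.17, adjusted p = 6.35e-09). Lmna, which encodes lamin A/C, went from 362 and 200 to 10.3 and 9.93 CPM, and Il1b, the inflammatory cytokine, from 88.6 and 58.1 to 1.78 and 3.05 CPM. Car1, Aqp1 and Rhag, red cell genes, were also among the 15 largest falls, with Car1 going from 138 and 66.1 to 3.4 and 1.33 CPM and Rhag from 71.5 and 34.7 to 4.21 and 1.56 CPM. Hspa1a and Hspa1b, the inducible Hsp70 genes, are near copies whose reads cannot be divided with certainty: Hspa1b was at 305 and 204 CPM at 0h, and at 1.29 and 11.3 CPM at 6h.

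**Figure D1:**
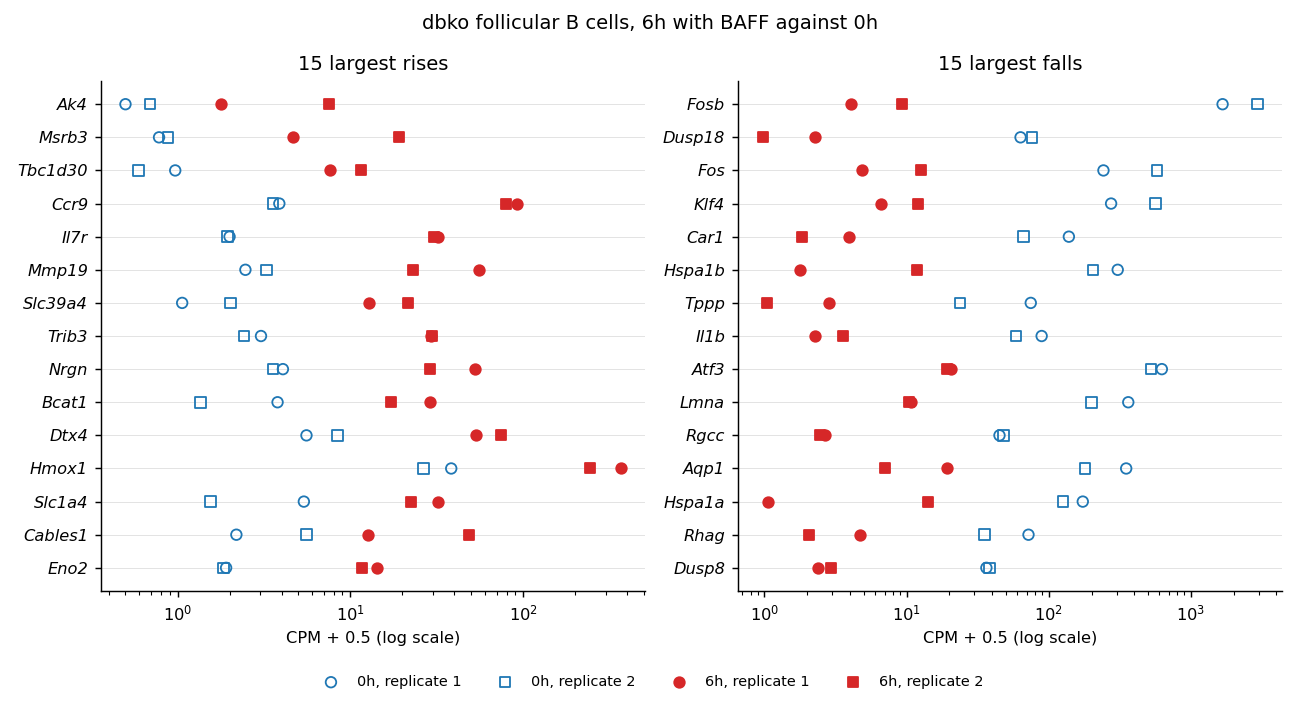
The 15 largest called rises and the 15 largest called falls after 6h with BAFF in the double knockout, with each of the 4 libraries as a point on a log axis of CPM plus 0.5. Only genes with the 6h points on 1 side of the 0h points were ranked, so this separation follows from the choice. The replicates are farthest apart at 6h for Hspa1a and Hspa1b.

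The 2 BAFF receptors with enough counts rose slightly. Tnfrsf13c, which encodes BAFFR, went from 206 and 174 to 257 and 254 CPM (log2 0.43 ± 0.12, adjusted p = 0.0107), a call that did not hold without replicate 2 of 0h (adjusted p = 0.069). Tnfrsf13b, which encodes TACI, went from 161 and 189 to 263 and 209 CPM (0.43 ± 0.13, adjusted p = 0.0199), lost without replicate 1 of 0h (0.141) or of 6h (0.15). In wt Tnfrsf13b fell from 232 and 227 to 117 and 115 CPM, and the responses differed by 1.41 ± 0.19 on the log2 scale (adjusted p = 0.000881). Over all genes tested 1749 (13.8%) had another 6h response in dbko than in wt. Tnfrsf17, Tnfsf13b and Tnfsf13 had too few counts to be tested. Among 11 other TNF receptor family genes 3 rose and 2 fell (1 without replicate 2 of 0h), near the 19.3% and 20.3% over all tested genes. The rise with the smallest adjusted p was Tnfrsf26, from 30.6 and 25.3 to 174 and 211 CPM (2.78 ± 0.12, adjusted p = 3.45e-08).

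Of the 3 NF-kB subunit genes that were not deleted, Rela fell and Nfkb1 rose. Rela, the canonical partner p65, went from 246 and 287 to 125 and 198 CPM (-0.72 ± 0.17, adjusted p = 0.00495). Nfkb1 went from 339 and 426 to 481 and 677 CPM (0.60 ± 0.15, adjusted p = 0.00785), and this call was lost without replicate 1 of 0h (0.0726) or replicate 2 of 6h (0.086). Nfkb2, whose product p100 is processed in the BAFF arm, went from 267 and 274 to 153 and 233 CPM (-0.49 ± 0.16, adjusted p = 0.0274). That fall was not called without replicate 1 of 0h (0.0523), replicate 1 of 6h (0.207) or replicate 2 of 0h (0.0785). Nfkb2 rose in wt (log2 0.69), and the difference of -1.18 ± 0.22 was called (adjusted p = 0.0062). Against cko 0 of the 5 subunit genes were called different (0.934% over all tested genes). Relb transcript itself rose by 0.40 ± 0.14 (adjusted p = 0.041), a call lost with DESeq2 (0.0589) or its size factors (0.0548) and without replicate 1 of 0h (0.284) or replicate 2 of 6h (0.319), and for Rel the change of 0.32 ± 0.14 had an adjusted p of 0.0822.

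The inhibitors of NF-kB went down: 6 of 9 fell and 0 rose, with a median log2 change of -0.67 over the list. Tnfaip3, which encodes the deubiquitinase A20, went from 468 and 923 to 97.6 and 158 CPM (-2.44 ± 0.29, adjusted p = 6.11e-05). Nfkbia, which encodes IkB alpha, went from 356 and 416 to 119 and 207 CPM (-1.24 ± 0.21, adjusted p = 0.000526). In both genes the 6h libraries were all below the 0h libraries, and replicate 2 was the higher at each time. Nfkbib, Nfkbie, Nfkbiz and Nfkbid were the other 4 called falls, and each lost its call when 1 library was left out: 3 of the 9 were called lower and 1 higher without replicate 1 of 6h, and 2 were called lower without replicate 2 of 0h. Nfkbiz, a nuclear IkB that acts as a coactivator, went from 96.4 and 127 to 49.8 and 90.4 CPM, while in wt it rose, and the responses differed by -1.86 ± 0.34 (adjusted p = 0.0062). Bcl3 levels were 42.2 and 55.5 CPM before culture and 28.8 and 73.9 CPM after it, so that its 6h replicates lay on both sides of the 0h values, and Tnip1 and Cyld were not called. Against cko, where the list median was -0.89, 0 of the 9 were called different (0.934% over all tested genes).

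The Nfkbia promoter is shown because its product is the classic feedback inhibitor and its window held a match to the kappaB letters GGGA, any base, then TTTCC. This motif, searched on both strands in the 250 bases before each start in the RefSeq promoter table (build GRCm38.p6), was present in 0.356% of 32851 windows and in 2 of 11 windows of the inhibitor list. The stretch is chr12:55492648-55492757 on the minus strand, read 5′ to 3′, and the capitals mark the match, which lies on the opposite strand. A match of letters does not show that a factor binds there.
Nfkbia: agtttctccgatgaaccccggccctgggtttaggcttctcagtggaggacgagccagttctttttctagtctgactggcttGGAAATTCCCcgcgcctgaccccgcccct

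The signalling genes upstream of NF-kB mostly fell, 8 of 11 with 1 rise. Birc3 and Birc2, which encode cIAP2 and cIAP1, went from 412 and 524 to 176 and 216 CPM (-1.25 ± 0.13, adjusted p = 1.91e-05) and from 125 and 171 to 83.4 and 84.3 CPM (-0.82 ± 0.13, adjusted p = 0.000402). Traf1, itself a classic NF-kB target, went from 65.1 and 72.9 to 40.9 and 54.6 CPM (-0.53 ± 0.13, adjusted p = 0.00709), not called without replicate 1 of 6h (0.0553). In wt Traf1 rose from 98.4 and 103 to 242 and 250 CPM, so the dbko libraries stood below every wt library at both times, and the responses differed by -1.82 ± 0.19 (adjusted p = 0.000257). Against cko, where the list median was -0.36, 0 of the 11 were called different (0.934% over all tested genes). Like Traf1, Birc2 and Birc3 in dbko differed from wt, by -1.09 ± 0.19 and -1.05 ± 0.19 (adjusted p = 0.00356 and 0.00441). These were the 3 of 11 called below the wt response (6.94% over all tested genes). Another 2, Traf5 and Map3k14, were called above it (6.9%). The Traf5 difference was called in every alternative, and that of Map3k14 was not. Traf6, Traf3 and Chuk fell by 0.43, 0.51 and 0.50, and Traf3, the adaptor that holds NIK down, was not called without replicate 2 of 0h (adjusted p = 0.0681). Map3k14, which encodes NIK, was the rise, from 49.7 and 81.0 to 89.6 and 93.0 CPM (0.48 ± 0.17, adjusted p = 0.0357), a call lost without replicate 1 of 0h (0.309), replicate 1 of 6h (0.0591) or replicate 2 of 6h (0.0954). Without replicate 2 of 0h 5 of the 11 were called lower and 2 higher.

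Among 35 tested NF-kB target genes 16 fell and 3 rose (20.3% and 19.3% over all tested genes), with a median of -0.56. Cd69, an early activation marker, went from 447 and 819 to 40.6 and 67.0 CPM (-3.56 ± 0.30, adjusted p = 6.04e-06). Cd83 went from 2070 and 2960 to 371 and 511 CPM (-2.51 ± 0.20) and Slamf1, a signalling receptor of lymphocytes, from 38 and 33.0 to 4.13 and 3.44 CPM (-3.23 ± 0.16). Irf4, a factor of B cell activation, went from 1680 and 2430 to 600 and 812 CPM (-1.54 ± 0.18). Each of these 4 genes was well separated between the times in both replicates. Tnf went from 57.5 and 40.9 to 15.9 and 16.6 CPM (-1.60 ± 0.18, adjusted p = 2.46e-05), whereas wt rose from 17.1 and 17.6 to 27.2 and 28.7 CPM, and the response differed from that of wt by -2.28 ± 0.25 (adjusted p = 0.000371) and from that of cko by -1.40 ± 0.25 (adjusted p = 0.0219). The difference from cko was not called without any 1 of the cko libraries (0.0636 to 0.142) or without replicate 1 of dbko 0h (0.0575). The count of rises in the list depended on single libraries: 6 without replicate 1 of 6h, and 1 without replicate 1 of 0h or without replicate 2 of 6h.

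Survival genes changed in both directions, 2 higher and 3 lower of 10, shares near those over all tested genes (19.3% higher and 20.3% lower), with 0 higher without replicate 1 of 0h and 1 higher without replicate 1 of 6h. Bcl2l1, which encodes Bcl-xL, went from 8.55 and 8.14 to 14.2 and 10.9 CPM (0.59 ± 0.18, adjusted p = 0.0196). The call was lost without replicate 1 of 0h (0.0582), replicate 1 of 6h (0.129) or replicate 2 of 0h (0.0738). Wild-type cells went from 10.5 and 9.68 to 62.8 and 72.4 CPM, and the responses differed by -2.15 ± 0.25 (adjusted p = 0.000462), called under all alternatives. Mcl1, the anti-apoptotic member that B cells depend on throughout life, went from 1440 and 1230 to 726 and 734 CPM (-0.87 ± 0.12, adjusted p = 0.000105), and Pim1, a survival kinase, from 232 and 294 to 60.8 and 134 CPM (-1.44 ± 0.27, adjusted p = 0.00161). Pim2, a kinase known as a BAFF target, went from 30.2 and 36.3 to 42.8 and 139 CPM (1.45 ± 0.40, adjusted p = 0.0171), so most of its rise was in replicate 2, and it was not called without that library (0.0562) or without replicate 1 of 0h (0.0796). Bcl2 went from 58.5 and 94.6 to 51.8 and 42.0 CPM (-0.71 ± 0.19, adjusted p = 0.0113), lost without replicate 2 of 0h (0.141) or of 6h (0.0743).

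Of 14 tested pro-apoptotic genes 4 rose and 2 fell, again near the shares over all tested genes (19.3% and 20.3%), with 4 falls without replicate 2 of 6h. Bid and Bax, which act at the mitochondrial membrane, went from 50.3 and 60.7 to 88.1 and 123 CPM (0.92 ± 0.15, adjusted p = 0.000332) and from 72.6 and 67.0 to 91.4 and 135 CPM (0.70 ± 0.15, adjusted p = 0.00304). Casp9, the initiator caspase of the apoptosome, rose from 41.4 and 44.7 to 69.7 and 58.6 CPM (0.57 ± 0.11), and its response exceeded that of wt by 0.75 ± 0.15 (adjusted p = 0.00874). Pmaip1, the BH3-only gene that encodes Noxa, fell from 159 and 138 to 33.2 and 20.7 CPM (-2.46 ± 0.19, adjusted p = 1.35e-06). Bcl2l11, which encodes Bim, was at 355 and 430 CPM at 0h and at 299 and 522 CPM at 6h, with a change of 0.07 ± 0.19 that was not called, against a rise of 1.40 in wt (difference -1.33 ± 0.28, adjusted p = 0.00947, and 0.0518 without replicate 2 of wt 0h). Tfrc, the transferrin receptor of growing cells, is shown with these genes in the plot of survival and NF-kB genes: it went from 571 and 449 to 288 and 252 CPM (-0.92 ± 0.13), where wt went from 187 and 194 to 419 and 469 CPM (difference -2.14 ± 0.18, adjusted p = 0.000167).

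**Figure D2:**
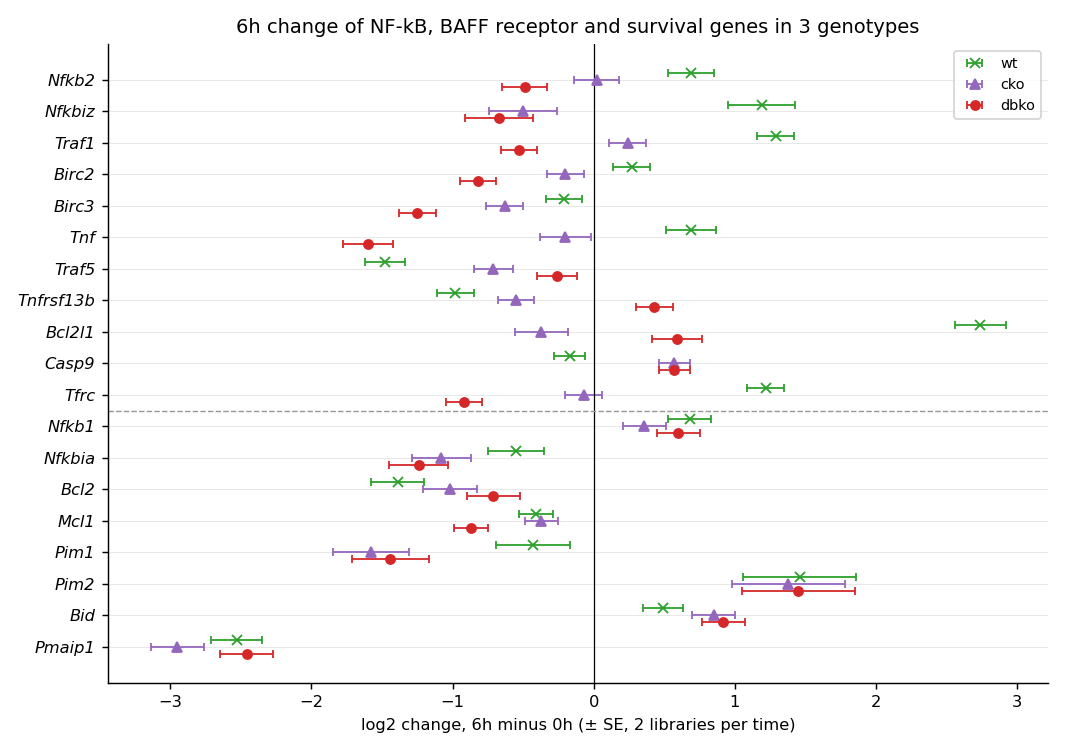
Log2 change after 6h with BAFF, with its standard error from the fit of all 14 libraries, for 19 NF-kB, BAFF receptor and survival genes in wt, cko and dbko (2 libraries per group and time). The dashed line divides the 11 genes whose response in dbko differed from wt in the test of the difference (above) from the 8 for which that difference was not called, and Bcl2l1 rose by 2.74 in wt and 0.59 in dbko.

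Several metabolic programmes rose in both replicates. Of 24 cholesterol synthesis genes 19 rose and 1 fell, with a median of 0.86 beside 0.03 for all genes. Lss, lanosterol synthase, went from 30.7 and 23.9 to 133 and 94.7 CPM (2.06 ± 0.18, adjusted p = 3.68e-06) and Fdps, farnesyl diphosphate synthase, from 19.9 and 11.7 to 64.5 and 51.9 CPM (1.88 ± 0.20). Replicate 1 was the higher at both times in 19 of the 24. For none of them was the response called different from wt or cko (13.8% and 0.934% over all tested genes). An absence of calls does not show that the responses were equal. Fatty acid synthesis was divided, with 6 rises and 3 falls among 11 tested (19.3% and 20.3% over all tested genes). Fasn went from 210 and 172 to 382 and 431 CPM. The desaturase Scd1 went from 1590 and 1840 to 774 and 769 CPM (-1.15 ± 0.12), lower than its wt response by 0.98 on the log2 scale (difference -0.98 ± 0.17, adjusted p = 0.00347).

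Targets of NRF2, the regulator of antioxidant genes, rose in 14 of 18 members with 0 falls (median 0.93). Gclc, which makes the rate-limiting subunit of glutathione synthesis, went from 117 and 89.4 to 335 and 458 CPM (1.94 ± 0.16, adjusted p = 2.02e-06), and Txnrd1, thioredoxin reductase 1, from 129 and 77.3 to 297 and 407 CPM (1.77 ± 0.20, adjusted p = 3.1e-05). Replicate 2 had the more upward change in 15 of the 18 genes. Hmox1 rose in both replicates, with the higher level in replicate 1 at both times, and it stood out from wt, where its level was not called changed (log2 0.13, difference 3.12 ± 0.31, adjusted p = 0.000257). Genes induced through ATF4, the factor of amino acid shortage, rose in 9 of 12 with 0 falls (median 1.25), and 1 fall was called in 8 of 12 alternatives, DESeq2 and its size factors among them. Mthfd2 and Shmt2, mitochondrial one-carbon enzymes, went from 46.7 and 26.2 to 131 and 106 CPM (1.70 ± 0.21) and from 128 and 72.2 to 277 and 282 CPM (1.48 ± 0.19). Atf5 went from 4.7 and 3.74 to 14.2 and 14.1 CPM, and Phgdh, the first enzyme of serine synthesis, from 35.1 and 23.9 to 70.6 and 80.3 CPM.

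Genes of glycolysis and of the hypoxia response separated the replicates. Over 21 glycolysis genes the median log2 change was 0.26 in replicate 1 and 1.24 in replicate 2, against 1.81 in wt and 2.05 in cko, and 20 of the 21 changed more upwards in replicate 2. Aldoa, aldolase A, went from 223 and 289 CPM to 722 and 1840 CPM (2.33 ± 0.34, adjusted p = 0.000331). Eno1, enolase 1, went from 55.5 and 41.1 to 106 and 325 CPM (2.16 ± 0.40, adjusted p = 0.00208). Pfkp, the platelet-type phosphofructokinase, rose more evenly, from 77.7 and 78.6 to 261 and 377 CPM (2.03 ± 0.17). In all 3 genes both 6h libraries exceeded both 0h libraries, and replicate 2 of 6h was the highest. Against the direction of the list, Pfkm, another phosphofructokinase, fell from 36.6 and 21.8 to 7.04 and 3.52 CPM (-2.47 ± 0.32), Slc16a1, a lactate carrier, from 281 and 223 to 41.3 and 60.6 CPM (-2.31 ± 0.18), and Slc2a3, a glucose transporter, fell by 1.22. In all 11 rose and 3 fell, 17 rose without replicate 1 of 6h, and 6 rose and 6 fell without replicate 2 at both times.

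The hypoxia list showed the same division, with medians of -0.02 in replicate 1 and 1.22 in replicate 2, and 16 of 18 genes changed more upwards in replicate 2. In all 6 rose and 1 fell, and 15 rose without replicate 1 of 6h. Bnip3, a mitophagy receptor and HIF target, went from 2.91 and 3.83 CPM to 7.36 and 31.7 CPM (2.54 ± 0.57, adjusted p = 0.00571). Egln1, the oxygen sensor PHD2, went from 35.3 and 35.2 to 52.4 and 139 CPM (1.44 ± 0.34, adjusted p = 0.00746), and Ankrd37 from 7.7 and 7.47 to 13.9 and 49.5 CPM (2.06 ± 0.46, adjusted p = 0.00579). These 3 genes started level in the replicates, and by 6h replicate 2 stood far above replicate 1. Ndrg1 did not divide them in this way, at 8.45 and 7.47 CPM and then 28.4 and 35.6 CPM (2.01 ± 0.14, adjusted p = 8.72e-07), nor did Ddit4, at 36.7 and 25.1 and then 56.5 and 61.5 CPM. Bhlhe40 was the fall, from 442 and 533 to 221 and 293 CPM. Of all tested genes 19.3% rose and 20.3% fell, the shares to set beside the counts of this list and the glycolysis list.

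Promoters of the 3 hypoxia genes that divided the replicates are shown with the letters ACGTG, the core of the site read by HIF, in capitals. Only windows with a match were printed, so its presence in these 3 was fixed by the choice. Whether such matches go with the division of the replicates was not tested. Searched on both strands over the same windows, ACGTG was present in 16.6% of all 32851, in 12 of 19 windows of the hypoxia list (63.2%) and in 14 of 33 windows of the glycolysis list (42.4%). All 3 are on the minus strand of GRCm38.p6 in RefSeq's table: Bnip3 at chr7:138909579-138909688, Egln1 at chr8:124949288-124949397 and Ankrd37 at chr8:45999851-46000100. In Bnip3 the match reads CACGTG, which holds ACGTG on both strands and is also the E-box letters, so the letters alone do not tell these sites apart, and a match is a description of the window and not of binding.
Bnip3: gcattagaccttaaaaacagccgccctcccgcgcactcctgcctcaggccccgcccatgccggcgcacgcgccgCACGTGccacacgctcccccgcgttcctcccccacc
Egln1: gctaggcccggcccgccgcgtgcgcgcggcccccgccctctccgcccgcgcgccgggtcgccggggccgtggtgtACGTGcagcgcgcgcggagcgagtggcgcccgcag
Ankrd37: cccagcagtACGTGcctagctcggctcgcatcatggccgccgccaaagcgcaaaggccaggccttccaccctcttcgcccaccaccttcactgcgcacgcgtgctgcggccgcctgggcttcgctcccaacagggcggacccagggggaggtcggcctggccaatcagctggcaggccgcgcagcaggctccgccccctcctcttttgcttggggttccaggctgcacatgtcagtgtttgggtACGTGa

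Ribosome biogenesis divided the replicates further, since their medians had opposite signs: -0.48 in replicate 1 and 0.42 in replicate 2 over 40 genes, with the more upward change in replicate 2 in all 40. In the fit 4 rose and 7 fell, no larger shares than over all tested genes (19.3% and 20.3%), 20 rose and 3 fell without replicate 1 at both times, and 0 rose and 25 fell without replicate 2 at both times. Gnl3, a nucleolar GTPase, went from 298 and 241 to 115 and 167 CPM (-0.93 ± 0.16, adjusted p = 0.000499), and Utp15, of the small-subunit processome, from 157 and 151 to 84.1 and 99.6 CPM (-0.75 ± 0.10, adjusted p = 0.000108). Both fell in each replicate, and both differed from wt (-1.56 ± 0.22 and -0.91 ± 0.14, adjusted p = 0.00121 and 0.00216). For 20 of the 40 the response was lower than in wt, a number between 8 and 33 when any 1 of the 8 wt and dbko libraries was left out (8 without replicate 1 of wt 0h or replicate 2 of wt 6h). Of all tested genes 6.94% had a lower response than in wt. Against cko 0 of the 40 were called different (0.934% over all tested genes), and the list median was 0.24 in cko and 0.7 in wt. In dbko Myc, the factor that drives ribosome biogenesis genes, went from 421 and 446 to 104 and 257 CPM (-1.26 ± 0.31, adjusted p = 0.00791). Of 31 proteasome genes, which also changed more upwards in replicate 2 in all 31, 7 rose and 1 fell (over all tested genes 19.3% and 20.3%), with 13 rises without replicate 1 of 0h, 1 without replicate 2 of 0h, 3 without replicate 2 of 6h, 18 without replicate 1 at both times and 1 without replicate 2 at both times.

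**Figure D3:**
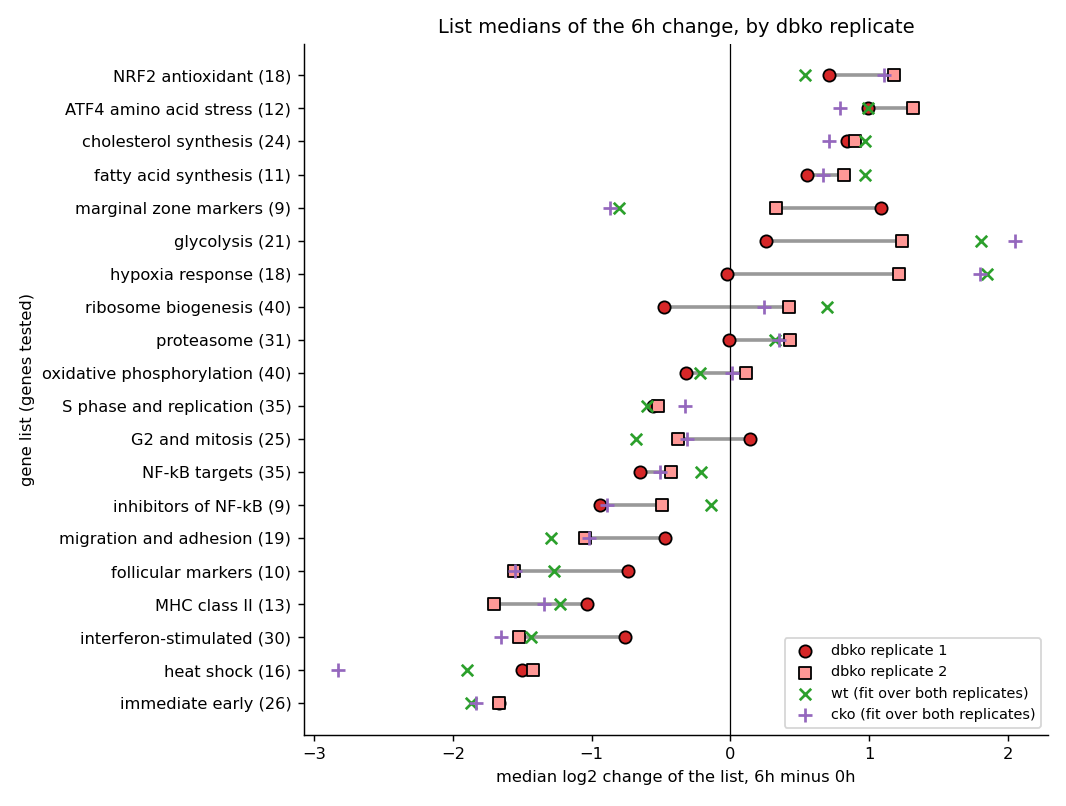
Median log2 change after 6h over the tested members of 20 gene lists, in replicate 1 and replicate 2 of the double knockout and in the wt and cko fits. The replicates lie together for the immediate early and heat shock lists and apart for glycolysis (0.26 and 1.24), hypoxia (-0.02 and 1.22) and ribosome biogenesis (-0.48 and 0.42).

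In 2 of the falling groups, immediate early and heat shock genes, the replicates gave nearly the same medians (-1.67 and -1.67, and -1.5 and -1.42). Of 26 immediate early genes 23 fell and 0 rose (median -1.67). Dusp1, a phosphatase of MAP kinases, went from 180 and 221 to 21.1 and 23.6 CPM (-3.16 ± 0.13, adjusted p = 2.45e-08), and Klf6 from 984 and 1310 to 297 and 282 CPM (-1.99 ± 0.15). Of 16 heat shock genes 14 fell (median -1.5). Against wt 0 of the 16 were called with a higher response and 1 with a lower one (6.9% and 6.94% over all tested genes). Summed over the list, 0h levels were 8990 and 8770 CPM in dbko, 9920 and 10200 CPM in wt, and 17400 and 17600 CPM in cko. Hsph1, an Hsp110 chaperone, went from 964 and 1110 to 96.0 and 137 CPM (-3.15 ± 0.17), where cko went from 3260 and 3230 to 97.1 and 98.3 CPM, so cko began higher and ended near the same level. The difference from cko was called for 6 of the 16, each with the smaller fall in dbko (Hsph1 1.90 ± 0.22, adjusted p = 0.00362, Dnaja1 1.28 ± 0.14, adjusted p = 0.00284), against 118 genes (0.934%) called different from cko over all tested. Leaving out 1 of the cko or dbko libraries gave between 3 and 9 of them (3 without replicate 2 of cko 0h and 9 without replicate 1 of dbko 6h).

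Genes of antigen presentation and interferon response fell, further in replicate 2. Of 13 MHC class II genes 11 fell, with medians of -1.03 and -1.70 in replicates 1 and 2, among them H2-Ab1 from 3480 and 4440 to 1460 and 1040 CPM (-1.66 ± 0.20), H2-DMa from 381 and 441 to 160 and 89.4 CPM and Cd74, the invariant chain, from 12300 and 16200 to 6050 and 5550 CPM (-1.30 ± 0.17). Reads shared by near-identical H2 genes could be split between them. Of 30 tested interferon-stimulated genes 20 fell and 0 rose, with medians of -0.76 and -1.52, and 13 fell and 1 rose without replicate 2 of 6h. Irf7, the master factor of the interferon response, went from 49.6 and 68.5 to 7.28 and 7.11 CPM (-3.03 ± 0.21, adjusted p = 6.39e-07), level in the replicates, while Rsad2 went from 20.9 and 18.5 to 4.21 and 1.88 CPM. Among 21 unfolded protein response genes 8 fell and 1 rose (20.3% and 19.3% over all tested genes). The count of rises changed when replicate 2 of 0h was left out. Hspa5, which encodes the chaperone BiP, went from 2380 and 2810 to 595 and 711 CPM (-1.99 ± 0.14).

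Markers of the follicular state fell in 9 of 10 tested members and rose in 0, with medians of -0.74 and -1.56 in replicates 1 and 2. In wt and in cko 9 of the 10 fell too, with list medians of -1.27 and -1.55. Against wt only 1 of the 10, Fcer2a, was called different (13.8% over all tested genes). Fcer2a, which encodes CD23, went from 695 and 1090 to 167 and 168 CPM (-2.41 ± 0.17, adjusted p = 8.72e-07), a larger fall than in wt (difference -1.22 ± 0.23, adjusted p = 0.00641). Cxcr5, the receptor for the follicle chemokine CXCL13, went from 883 and 1400 to 257 and 477 CPM (-1.64 ± 0.26). Marginal zone markers changed in both directions, 5 higher and 4 lower of 9, with 3 higher without replicate 1 of 0h. S1pr3, a sphingosine phosphate receptor, went from 27.1 and 41.8 to 100 and 87.9 CPM (1.45 ± 0.16, adjusted p = 2.7e-05), and its response exceeded that of wt by 2.05 ± 0.23 and that of cko by 2.02 ± 0.23 (adjusted p = 0.000388 and 0.00334). Cd9 rose from 24.6 and 29.9 to 60.2 and 124 CPM and Plac8 from 670 and 533 to 1670 and 1780 CPM. Notch2, Hes1 and Cd1d1, the receptor, a target of Notch and the lipid-presenting molecule of marginal zone cells, fell by 1.03, 1.53 and 1.01. Over all tested genes 19.3% were called higher and 20.3% lower. Since these are bulk samples, a change in how many cells of a kind were present and a change in RNA per cell cannot be told apart.

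Migration genes fell in 11 of 19 and rose in 3 (20.3% and 19.3% over all tested genes). Klf2, the factor that keeps naive lymphocytes in circulation, went from 321 and 381 to 79.0 and 96.9 CPM (-1.99 ± 0.18), less than in wt (-3.27, difference 1.27 ± 0.25, adjusted p = 0.00729). Itgb7, an integrin chain for gut homing, went from 157 and 180 to 68.3 and 45 CPM (-1.57 ± 0.17), also less than in wt (difference 1.37 ± 0.24, adjusted p = 0.00387). Gpr183, a receptor that places B cells at the follicle edge, fell from 388 and 453 to 122 and 135 CPM (-1.71 ± 0.12). Among transcription factors Bcl6, of the germinal centre, went from 271 and 304 to 85.6 and 96.5 CPM (-1.66 ± 0.11), and Prdm1, of plasma cells, from 11.8 and 17.4 to 34 and 65.7 CPM (1.77 ± 0.26, adjusted p = 0.000256). Sdc1, a surface marker of plasma cells, rose from 3.94 and 13.2 to 24.7 and 56.0 CPM, with the higher level in replicate 2 at both times, as for Prdm1. Jchain, another plasma cell gene, did not follow the time: it was at 46.7 and 143 CPM at 0h and at 23.5 and 166 CPM at 6h.

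Markers of other cells showed what else the preparations held. Of 19 erythroid genes 18 fell (median -3.52), and their summed level went from 2490 and 1230 CPM to 339 and 147 CPM, against 36.7 and 41.1 to 12.8 and 14.0 CPM in wt and 149 and 157 to 13.5 and 15.4 CPM in cko. Car2, carbonic anhydrase 2, went from 529 and 248 to 38.3 and 16.4 CPM (-3.83 ± 0.42, adjusted p = 8.49e-05). Replicate 1 was above replicate 2 at both times in 18 of the 19 genes. Macrophage and monocyte genes differed between the replicates: their summed level before culture was 339 and 192 CPM, and after 6h it was 359 in replicate 1 and 123 CPM in replicate 2, whereas wt went from 236 and 236 to 54.1 and 54.9 CPM and cko from 63.0 and 57.7 to 35.9 and 35.8 CPM. Of 17 tested 1 rose and 3 fell, 10 fell without replicate 1 of 6h, and 5 rose without replicate 2 of 6h. The 1 rise and 3 falls in the fit were no larger shares than over all tested genes (19.3% and 20.3%). Csf1r, the macrophage growth factor receptor, was at 43.3 and 14.1 CPM and then 32.8 and 7.58 CPM. The part of these cells in the changes of other genes was not tested.

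The remaining lists of other cells were low or moved with a few genes. The summed level of dendritic cell markers went from 95.9 and 92.0 to 40.4 and 28.5 CPM, and 5 of the 7 tested fell, among them Xcr1 from 12.6 and 14.8 to 2.18 and 1.64 CPM. Neutrophil markers summed to 25.4 and 8.14 CPM and then 7.6 and 2.74 CPM, with Camp at 0 in all 4 libraries, and natural killer markers to 11 and 12.2 and then 2.67 and 4.14 CPM. The T cell list rose from 58.4 and 92.3 to 123 and 133 CPM, carried by genes that B cells can also express, such as Il7r and Cd28 (1.5 and 3.54 to 16.8 and 21.3 CPM), while Cd8a fell from 14.6 and 20.6 to 0 and 0.234 CPM. Of the 8 tested 4 rose and 1 fell (19.3% and 20.3% over all tested genes). The rises included Trac, of the T cell receptor, at few counts (0 and 0.287 to 1.38 and 1.8 CPM), and Tcf7 (1.88 and 1.15 to 4.85 and 4.69 CPM). Of 9 B cell markers 6 fell and 0 rose, with 1 rise without replicate 1 of 6h, and they summed to 15500 and 20500 CPM and then 13800 and 17900 CPM. Much of that sum was Ighm, the constant region of IgM, at 6290 and 9480 and then 6930 and 11800 CPM, with replicate 2 above replicate 1. At 6h other markers had the opposite order, Ms4a1, which encodes CD20, at 1780 and 1050 CPM and Cd22, an inhibitory receptor, at 759 and 439 CPM. Ighm and Ms4a1 were chosen after their values were seen.

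**Figure D4:**
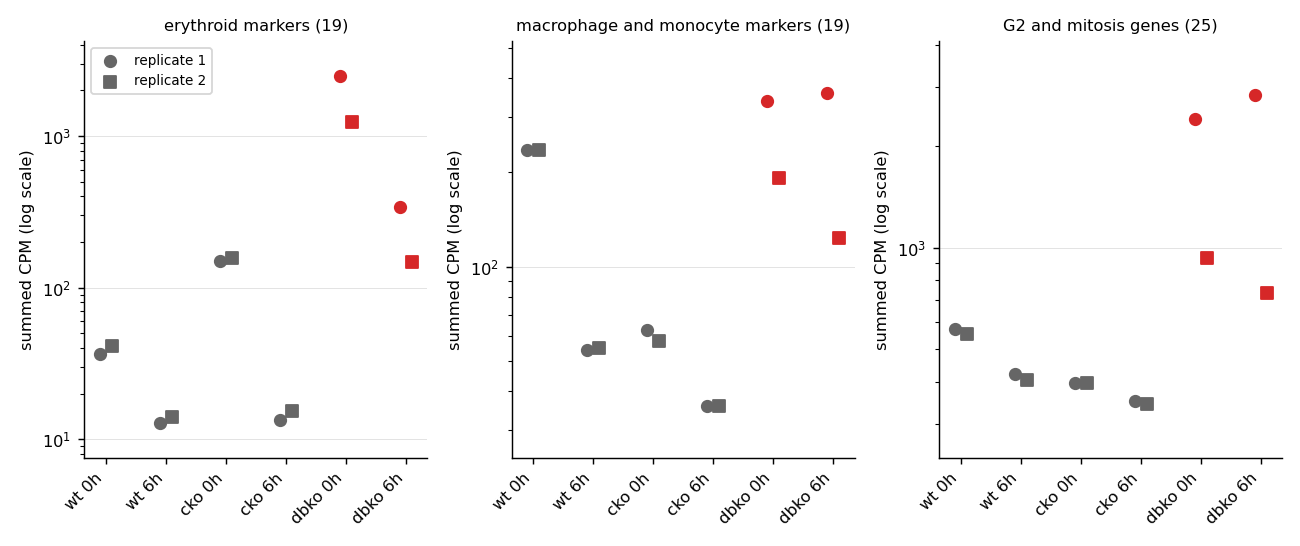
Summed CPM (log axis) of 19 erythroid, 19 macrophage and 25 G2 and mitosis genes in each wt, cko and dbko library at 0h and 6h. Within each time the double knockout libraries, in red, stand above the others for erythroid and mitosis genes, and replicate 1 stands above replicate 2.

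Against wt, the double knockout shared most of the directions of its changes. In wt 5830 genes (46.2%) changed and in cko 5297 (41.9%). Of the 2442 rises in dbko 1400 also rose in wt and 52 fell there, and of its 2562 falls 1619 also fell in wt and 105 rose. In cko 1790 of these rises also rose and 8 fell, and 1855 of these falls also fell and 15 rose. The difference from wt itself was called for 1749 genes, 872 with the higher and 877 with the lower response in dbko (6.9% and 6.94%), and in 942 of these the fitted changes had opposite signs. Zbtb46, a factor best known from dendritic cells, had the largest negative difference among named protein-coding genes averaging 3 or more on the log2 CPM scale: it was at 9.02 and 5.75 CPM and then 3.96 and 7.35 CPM in dbko, and went from 2.5 and 2.42 to 51.6 and 50.7 CPM in wt (difference -4.75 ± 0.39, adjusted p = 0.000167). Ccl4 and Ccl3, chemokines of activated B cells, stood at 23.2 and 30.1 and then 18.4 and 50.5 CPM, and at 10.1 and 11.8 and then 13.1 and 34.5 CPM, below their wt responses by 3.33 and 3.0 (differences -3.33 ± 0.54 and -3.0 ± 0.55, adjusted p = 0.00479 and 0.00816). Il1r2, a decoy receptor for IL-1, was at 43.6 and 28.3 and then 24.2 and 20.6 CPM and differed by -3.09 ± 0.30 (adjusted p = 0.000257). Osgin1, an oxidative stress gene, was at 7.61 and 10.3 and then 11.3 and 22.4 CPM, and Nrgn rose in dbko, both above their wt responses (3.15 ± 0.41 and 3.08 ± 0.44, adjusted p = 0.000857 and 0.00128). The number of genes called depended on single libraries: it was 595, 613, 741 and 596 without wt 0h replicate 1, wt 0h replicate 2, wt 6h replicate 1 and wt 6h replicate 2, and 2634 without dbko 6h replicate 2.

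Against cko, which lacks c-Rel alone, 118 genes were called different (74 with the higher and 44 with the lower response in dbko, 0.586% and 0.348%), and 1540 had an unadjusted p under 0.05. This count was the least stable: 12, 17, 19 and 60 without cko 0h replicate 2, cko 0h replicate 1, cko 6h replicate 1 and cko 6h replicate 2, 64 without dbko 0h replicate 1, 619 and 682 without dbko replicate 2 of 0h and of 6h, and 1 in a fit of these 2 genotypes alone. Among the named genes 7 kept their call in every alternative except that last fit: Mmp19, S1pr3, Hsph1, Hspa8, Dnaja1, Ctse and Abcb4. Mmp19 rose in dbko with a response above that of cko by 5.56 ± 0.70 (adjusted p = 0.00475), and its response was not called different from that of wt. Ctse, cathepsin E, fell from 289 and 159 to 33.7 and 31.5 CPM in dbko and was not called changed in cko (difference -2.60 ± 0.31, adjusted p = 0.00416). Abcb4, a phospholipid transporter, was at 60.6 and 37.0 and then 30.5 and 36.6 CPM, with a response below that of cko (difference -2.33 ± 0.30, adjusted p = 0.00475).

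Genes of dividing cells differed between the replicates at both times. In 345 genes (2.73%) replicate 1 was at least 2-fold above replicate 2 at both times, and in 74 (0.586%) at least 2-fold below, by levels and with no test. Of 25 G2 and mitosis genes 21 were in the first set, and their summed level was 2420 and 932 CPM before culture, then 2840 and 731 CPM, where the wt and cko libraries lay between 343 and 572 CPM. Kif11, a mitotic kinesin, stood at 155 and 42.5 CPM and then 198 and 38.5 CPM, and Pclaf, a PCNA-binding protein, at 106 and 28.8 and then 114 and 18.8 CPM. In the fit 0 of the 25 were called in either direction, 13 fell without replicate 1 of 6h, and 6 rose without replicate 2 of 6h. S phase genes fell in 12 of 35 and rose in 0, with between 7 and 27 falls when a dbko library was left out (7 without replicate 1 of 0h, 27 without replicate 1 of 6h). With a replicate block within each genotype 3 G2 and mitosis genes were called higher and 9 lower, and 27 S phase genes lower. Beside the S phase count of the main fit, 20.3% of all tested genes fell and 19.3% rose. Pcna, the replication clamp, went from 272 and 242 to 141 and 102 CPM (-1.08 ± 0.14), and Ccnd2, cyclin D2, from 724 and 232 to 80.1 and 73.6 CPM (-2.64 ± 0.39), with the replicates far apart before culture and together after it. Lifr, a cytokine receptor, stood at 315 and 26.0 CPM and then 38.8 and 3.6 CPM, and S100a4, a calcium-binding protein of motile and myeloid cells, at 132 and 9.29 and then 98.7 and 10.2 CPM.

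Genes lower in replicate 1 included 4 neighbours of 1 antiviral Trim cluster on chromosome 7. Trim12a was at 0.0939 and 103 CPM at 0h and at 0.243 and 86.7 CPM at 6h, where the 8 wt and cko libraries lay between 91.3 and 125 CPM. Trim5 was at 0 and 16.0 and then 0.405 and 34.2 CPM, Trim30d at 0.564 and 49.4 and then 0.566 and 15.9 CPM, and Trim34a at 4.13 and 63.1 and then 6.96 and 63.7 CPM. In each of these 4 genes replicate 1 was far below replicate 2 at both times. Within replicate 2 Trim5 was higher and Trim30d lower at 6h, as in wt, where Trim5 stood at 17.9 and 18.2 and then 42.4 and 35.6 CPM and Trim30d at 56.5 and 54.6 and then 31.2 and 23.8 CPM. The window from 104044457 to 104707849 on chromosome 7 (GRCm38) held 11 tested genes, 7 of them at least 2-fold lower in replicate 1 at both times. Of the other genes there, chosen after their values were seen, Trim12c was at 39.1 and 54.8 and then 72.1 and 63.9 CPM and Trim30a at 147 and 146 and then 129 and 84.5 CPM, close to the other genotypes in both replicates, and Trim30c was higher in replicate 1 (19.5 and 4.5, then 7.85 and 1.88 CPM). Trim genes in this cluster are near copies, so reads could be divided between them or dropped. Slc15a2, a peptide transporter outside the window, was also low in replicate 1, at 4.04 and 46.9 and then 3.8 and 35.3 CPM. What sets replicate 1 apart in these genes was not tested.

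**Figure D5:**
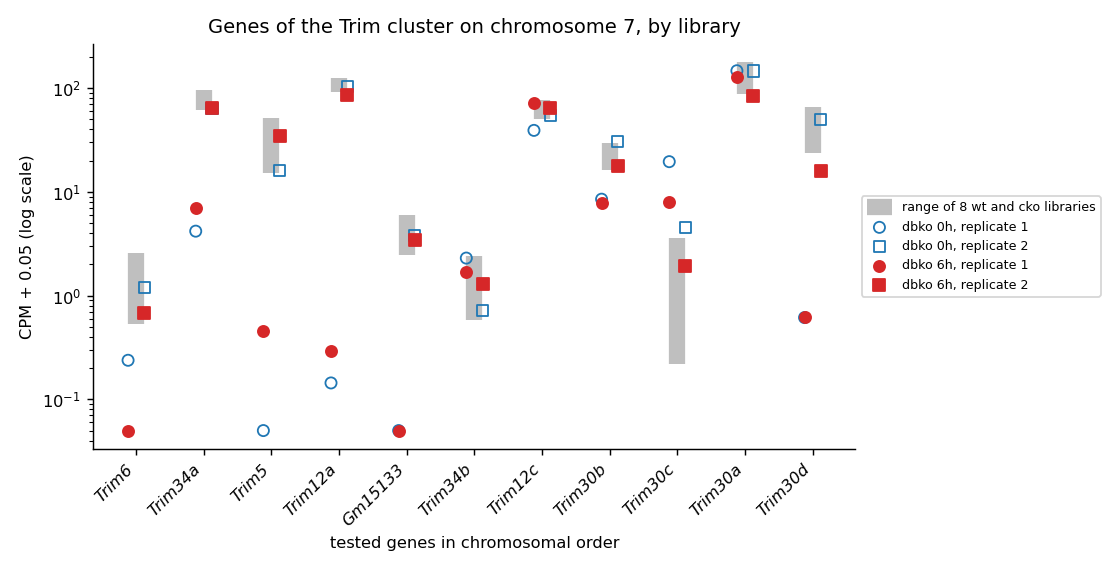
CPM plus 0.05 (log axis) of the 11 tested genes of the chromosome 7 Trim cluster in the 4 double knockout libraries, with a grey bar for the range of the 8 wt and cko libraries. For Trim12a, Trim5, Trim30d and Trim34a both replicate 1 points lie far below the bar, and the replicate 2 points near or within it.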

How the data were processed

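RNA of splenic follicular B cells was sequenced from poly-dT primed TruSeq libraries, per the labels' protocols. The deposited values are whole-number counts of reads per Ensembl gene ID, 1 table per library, not normalized by the authors. The submitters' processing notes name CASAVA 1.8.2. Not given in the sources used here are the aligner, counter, build, annotation and strand setting. Of the reads tallied, 5.21 to 11.46% lay in no feature and 38.77 to 49.85% aligned to more than 1 place. These tallies were left out. Gene counts summed to 10497802 to 11888765 per library, over 15438 to 16490 genes.

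Of 39179 gene IDs 37693, with 99.56% of the counts, matched symbols in GENCODE M21 on GRCm38. Counts were scaled by TMM and filtered by filterByExpr, and 12630 genes were fitted in edgeR 4.0.16 (R 4.3.3, limma 3.58.1; glmQLFit, robust, and glmQLFTest, two-sided) with 1 mean for each of 7 groups over all 14 libraries, the 27h wild-type group included. This left 7 residual degrees of freedom, with a common biological coefficient of variation of 0.144. The Benjamini-Hochberg adjustment ran over all 12630 genes, with calls at an adjusted p under 0.05. Differences of responses were contrasts of the same fit. CPM levels use the TMM-scaled library sizes. Changes per replicate are differences of log2(CPM + 0.5), and their medians and counts carry no test, since the replicate numbers name lanes and no label says that they pair libraries. In dbko the differences between replicates at 0h and at 6h had a correlation of 0.49, the highest among the pairs of groups. Whether the 0h and 6h libraries of a dbko replicate share an origin was not tested, and the main test did not pair them. In simulated counts 84% of 2-fold and 99% of 4-fold changes were called, and 0.06% of unchanged genes. The simulation gave all groups the same spread and left out genes of low level from the changed set. It held no wider differences between dbko replicates, so these rates do not carry over to the dbko comparison. Other values used Python 3.11.15 and NumPy 2.4.6.

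The 48 gene lists and the members were chosen with earlier results of these data known, so list counts support no independent claim. Named genes are Rel and Relb, the 15 largest called rises and falls without overlap between times, up to 6 called members per list with the smallest adjusted p, every member of the NF-kB subunit, inhibitor and activator, BAFF receptor, survival and apoptosis lists, the 8 largest called differences from wt and from cko in each direction, and the 8 genes that differ most between dbko replicates in each direction. The rankings of 15 and 8 ran only over protein-coding genes averaging 3 or more on the log2 CPM scale (prior count 2). Genes with only a Gm, Rik or similar clone name were left out of them. Cd3e, Camp and the sums over marker lists were added as checks of other cells. Alternatives were DESeq2 1.42.0, its size factors, no filter on low counts, a replicate block, the compared groups alone, and leaving out libraries. Promoters came from RefSeq's table for GRCm38.p6. Values of a few named genes are not reported here.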

Additional observations from a re-analysis of the deposited data

Results flagged for a closer look

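The following genes had another 6h response in dbko than in a second genotype in a test of the difference itself (log2 difference, edgeR's quasi-likelihood test with Benjamini-Hochberg adjustment), and are the 8 largest in each direction.

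Above the wt response were Csf1r (3.85), Lyz2 (3.45), Vcam1 (3.42), Lrp1 (3.40), Osgin1 (3.15), Hmox1 (3.12), Nrgn (3.08) and Slc40a1 (3.04). Csf1r, Lyz2 and Vcam1 belong to the macrophage list, and Lrp1 and Slc40a1 are well known from macrophages too. Their dbko replicates differed at 6h, with Lyz2 at 47.7 and 12.9 CPM and Slc40a1 at 76.5 and 15.3 CPM, and all 5 lost their calls in some alternatives. Csf1r, Vcam1, Lrp1 and Slc40a1 were not called without any 1 of the wt libraries, and Lyz2 not without wt 0h replicate 1, wt 0h replicate 2 or wt 6h replicate 2 (highest adjusted p 0.133, 0.148, 0.173, 0.149 and 0.129). Vcam1, Lrp1 and Slc40a1 were also not called without dbko 0h replicate 2 (0.0543, 0.0765 and 0.0644), and Vcam1 and Lrp1 not without dbko 6h replicate 1 (0.0511 and 0.0862). Below the wt response were Zbtb46 (-4.75), C1qtnf12 (-4.10), Il2ra (-3.67), Ccl4 (-3.33), Ifitm2 (-3.27), Il1r2 (-3.09), Ccl3 (-3.00) and Car2 (-2.93). Il2ra, the high-affinity IL-2 receptor chain, was not called without wt 0h replicate 2 (0.0512), and Car2, an erythroid gene, not without wt 0h replicate 1 (0.0641) or wt 6h replicate 2 (0.0736).

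Above the cko response were Mmp19 (5.56), Nrgn (2.72), Myof (2.49), Pde4a (2.29), Cxcl16 (2.21), Plau (2.19), Emid1 (2.14) and S1pr3 (2.02). Myof, a membrane repair protein, went from 15.9 and 41.7 to 155 and 142 CPM in dbko. Below it were Zfp948 (-2.72), Ctse (-2.60), Abcb4 (-2.33), C1qtnf12 (-2.31), Pglyrp1 (-2.27), Zbtb46 (-2.13), Mxi1 (-2.03) and Cd86 (-1.99). Cd86, a ligand of CD28, was at 86.1 and 108 CPM at 0h and at 91.8 and 182 CPM at 6h. Of these 16 only Mmp19, S1pr3, Ctse and Abcb4 stayed called in each alternative with more than the 2 genotypes in the fit.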

How the results depend on the processing

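For dbko 6h against 0h the 5004 calls became 4991 with DESeq2's size factors, 5287 without the filter, 4468 with DESeq2, and 4509 to 5187 leaving out 1 library (higher 2095 to 2480, lower 2395 to 2707). Fitted alone, these 4 libraries gave 1323 (520 higher, 803 lower), all among the 5004. The replicate block gave 5127 across all groups and 5970 within each genotype, where 3 G2 and mitosis genes were called higher and 9 lower (0 and 0 without it) and 27 S phase genes lower (12 without it). No label says that the numbers pair libraries, and 5 of 21 pairs of groups had deviations correlated over 0.1 (range -0.302 to 0.49, the highest for dbko 0h and 6h).

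For the difference from wt (1749) the compared groups alone gave 650 (275 higher, 375 lower), the replicate block within genotype 2685 (1384 higher), leaving out dbko replicate 2 at both times 4054 (2112 and 1942), and leaving out 1 library 595 to 2634 (higher 259 to 1312, lower 318 to 1322). For the difference from cko (118) no filter gave 576 (344 and 232), the replicate block within genotype 329 (179 and 150), DESeq2 258 (153 and 105), the compared groups alone 1 (1 and 0, with 1540 genes at an unadjusted p under 0.05 in the fit of all groups), leaving out dbko replicate 1 at both times 288 (163 and 125), replicate 2 at both times 2080 (1016 and 1064), and 1 library 12 to 682 (higher 9 to 355, lower 3 to 327). The cause of these shifts was not tested.

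Log2 changes in dbko that turned, meaning that the sign changed and the gene was called with or without the alternative, ran, leaving out 1 library, from -1.79 to 1.85 for S100a6, -0.88 to 1.43 for Slc40a1, -0.54 to 0.60 for Mxi1, -0.39 to 0.41 for Bcl2l11, -0.76 to 0.60 for Bcl3 and -2.01 to 1.03 for Jchain. S100a6 was 0.51 without replicate 1 at both times, and without replicate 2 at both times Mxi1, Bcl3, Jchain and Icosl were -0.59, -0.55, -0.99 and 0.01. Of the values of named genes under alternatives, 3658 kept their side of the threshold, 382 lost it, 108 gained it and 11 turned. A change of sign with no call on either side of it is not among the 11, as in Csf1r (-1.92 to 0.50 over all alternatives), Ccl4 (-0.53 to 0.92), Cenpf (-0.76 to 1.87) and Esco2 (-2.27 to 0.93). Of 258 named genes called in dbko, 197 kept the call in every alternative but the fit of 4 libraries, and 136 in that too. Counts per gene of a few reads limit Ak4, Trim5 and Cd8a.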
